A study of Homo sapiens with 2 samples.

Results

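The human vault and Y RNA genes are 8 short genes: VTRNA1-1, VTRNA1-2, VTRNA1-3 and VTRNA2-1 on chromosome 5, and RNY1, RNY3, RNY4 and RNY5 on chromosome 7. Of these, 7 are among the 62663 genes that GENCODE annotates on chromosomes 1 to 22, X and Y, and RNY5 is listed by RefSeq alone. The 8 were chosen by symbol as the functional genes of both families, at a time when it was already known which of them had a listed region, so the overlaps below are a description without a test. Of the 8 genes, 5 lay wholly inside a genomic region whose R-loop signal the authors called as different after APOBEC3B (A3B) knockdown. These were VTRNA1-1, VTRNA1-2, RNY1, RNY3 and RNY5, each in a region of its own, while VTRNA1-3, VTRNA2-1 and RNY4 had none.

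In an R-loop, nascent RNA pairs with its template and leaves the other DNA strand single. Such structures were located by CUT&Tag, in which a tethered transposase tags DNA near a bound antibody, in the established uveal melanoma line OMM2.3. Both groups were OMM2.3 cells transfected with a plasmid for V5-tagged RNASEH1_D210N, a form of RNase H1 that binds hybrids without cutting them, and the V5 antibody (Abcam) brought the transposase to the bound DNA. One group carried a control hairpin (shCtrl) and the other a hairpin against A3B (shA3B), with 1 library each, so there was no replicate check and no p-value could be given. The labels do not say which of the study's A3B hairpins was used, and a plasmid-expressed probe also adds RNase H1 protein to the cells of both groups. The file holds 562 regions (chromosome, start and end, GRCh38) that differed between the 2 libraries. It gives neither counts nor the sign of the difference. A listed region therefore says that the signal differed, not in which library it was higher, and a gene without a region may have equal R-loop signal in both libraries, no signal, or a difference below a threshold that is not stated. How deeply either library was sequenced is unknown here. Neither the cell line label nor the knockdown could be checked from the list: A3B itself had no region at its promoter, and of 7 melanocyte lineage genes 1, MLANA, had one (428 bp), but a difference in R-loop signal is no measure of expression.

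Vault RNAs are short noncoding RNAs, part of which reside in the vault, a large cytoplasmic particle built from the major vault protein. Y RNAs are short stem-loop RNAs that bind the Ro60 and La proteins and are known for a role in the initiation of DNA replication. Both are made by RNA polymerase III, which transcribes very short genes and stops at a run of T. Vault RNA genes have their main promoter elements, the A box and the B box, inside the transcribed part, whereas Y RNA genes are driven by elements upstream of the start, among them a TATA box.

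The 4 vault RNA genes are shown first, since the VTRNA1 genes are near copies of each other and yet differ in having a region. Capitals mark the core of the B box (GTTCGANNC) and the run of 4 T that ends transcription, where present.
VTRNA1-1 (chr5:140711276-140711373, plus strand): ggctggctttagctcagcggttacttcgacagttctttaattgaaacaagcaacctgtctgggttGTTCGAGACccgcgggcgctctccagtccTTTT
VTRNA1-2 (chr5:140718926-140719013, plus strand): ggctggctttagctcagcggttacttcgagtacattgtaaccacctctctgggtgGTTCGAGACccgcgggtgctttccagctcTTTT
VTRNA1-3 (chr5:140726159-140726246, plus strand): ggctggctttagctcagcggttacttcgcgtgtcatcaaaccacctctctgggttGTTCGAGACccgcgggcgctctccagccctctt
VTRNA2-1 (chr5:136080491-136080598, minus strand): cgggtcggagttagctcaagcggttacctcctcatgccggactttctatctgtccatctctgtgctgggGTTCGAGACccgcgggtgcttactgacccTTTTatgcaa

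All 4 held the B box core with the same letters, GTTCGAGAC. The core pattern GTTCGANNC occurs in the first 120 bases of 0.243% of annotated genes, on the coding strand. All 4 also held the looser A box letters (TNGCNNA) in their first 36 bases, as 8.97% of annotated genes do, and no Y RNA gene held either box. The run of T in the last 10 bases was present in VTRNA1-1, VTRNA1-2 and VTRNA2-1. It was absent from VTRNA1-3, the member of the chromosome 5 cluster without a region, whose last bases read cagccctctt. Among all annotated genes 6.31% had such a run in their last 10 bases. Bases past the annotated end were not searched, so a run of T just beyond the end of VTRNA1-3 would be missed.

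RNY5, RNY4 and RNY1 follow in their order along chromosome 7, with the shared start of the RNA (GGTCCGA) and the final run of T in capitals. In the RNA, the 5′ and 3′ ends pair to form a stem, the part to which Ro60 binds.
RNY5 (chr7:148941488-148941571, plus strand): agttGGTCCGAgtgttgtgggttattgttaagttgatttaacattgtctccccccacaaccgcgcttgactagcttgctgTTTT
RNY4 (chr7:148963315-148963410, plus strand): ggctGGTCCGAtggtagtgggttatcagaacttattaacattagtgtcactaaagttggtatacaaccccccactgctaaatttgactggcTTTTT
RNY1 (chr7:148987136-148987248, minus strand): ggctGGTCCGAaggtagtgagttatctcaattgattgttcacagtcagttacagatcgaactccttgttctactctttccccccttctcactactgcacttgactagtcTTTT

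These 3 genes held both marks, and 0.353% of all annotated genes hold the start motif in their first 120 bases. RNY4, the Y RNA gene without a region, ended in 5 T, and RNY5 and RNY1 in 4 T.

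VTRNA1-1, VTRNA1-2 and VTRNA1-3 lie on the plus strand within 14971 bp of chromosome 5, between the protein-coding genes ZMAT2 and PCDHA1. The starts of VTRNA1-1 and VTRNA1-2 are 7650 bp apart, and those of VTRNA1-2 and VTRNA1-3 are 7233 bp apart. The region at VTRNA1-1 spanned 648 bp (chr5:140710896-140711543). It reached from 380 bp before the gene to 170 bp after it, so VTRNA1-1 took 15.1% of its region and lay downstream of the centre, with the middle of the gene 105 bp past the middle of the region. The region at VTRNA1-2 spanned 965 bp (chr5:140718463-140719427), with 463 bp before the gene and 414 bp after it. VTRNA1-2 was the most central of the 5 genes, 24.5 bp from the middle of its region, which is 0.0508 of the half-width. VTRNA1-3 was 6731 bp from the nearest region, which was the one at VTRNA1-2.

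Both vault regions also overlapped ENSG00000292256, an unnamed lncRNA gene on the same strand that spans the whole cluster, and the region at VTRNA1-1 contained its start site. R-loop CUT&Tag as listed here carries no strand, so a region over both genes cannot be assigned to one of them. The region at VTRNA1-2 held no other annotated start site than that of VTRNA1-2. ZMAT2 and PCDHA1 had no region, and the nearest one to ZMAT2, 4209 bp away, was that at VTRNA1-1.

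VTRNA2-1 lies apart from the others, 4630677 bp from VTRNA1-1, on the minus strand between TGFBI and SMAD5. This locus is known for its methylation on one parental copy in many people. The nearest region was 2382820 bp away, and neither TGFBI nor SMAD5 had one. Between VTRNA2-1 and VTRNA1-1 the list held 1 region.

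The Y RNA genes span 45761 bp of chromosome 7 between EZH2, which encodes the histone methyltransferase of Polycomb repressive complex, and PDIA4, and neither of these had a region. RNY5, RNY4 and RNY3 lie on the plus strand and RNY1 on the minus strand, so that RNY3 and RNY1 point towards each other with 3279 bp between them. RNY5 lay in a region of 350 bp (chr7:148941406-148941755), with 82 bp before the gene and 184 bp after it. RNY3 lay in a region of 357 bp (chr7:148983653-148984009), with 102 bp before and 153 bp after. RNY1 lay in a region of 362 bp (chr7:148986975-148987336), with 88 bp before and 161 bp after. The 3 regions thus differed in width by at most 12 bp, began 82 to 102 bp before the gene start along its own strand, and ended 254 to 273 bp after it. In each, the middle of the gene was upstream of the middle of the region, by 51 bp at RNY5, 25.5 bp at RNY3 and 36.5 bp at RNY1. RNY4, in the same cluster, was 20242 bp from the nearest region, which was the one at RNY3.

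**Figure D1:**
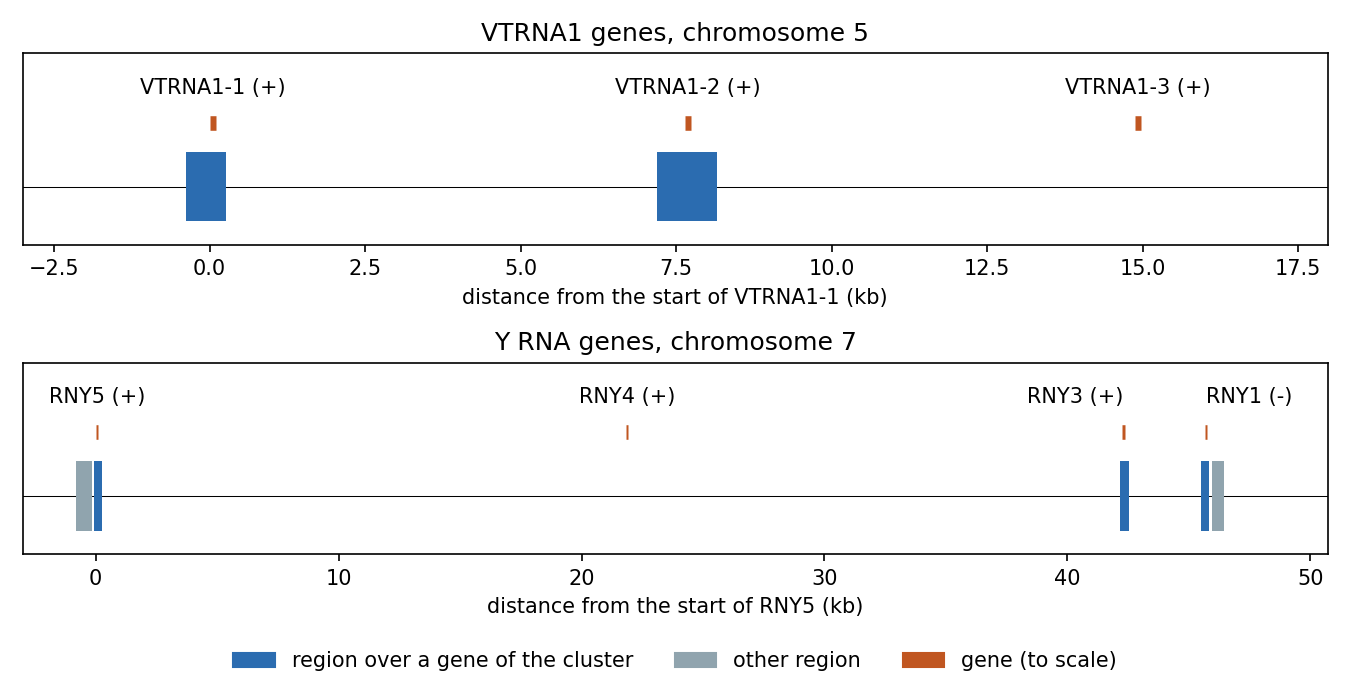
Listed regions (boxes) and genes (bars above) in the VTRNA1 cluster and the Y RNA cluster, by distance in kb from the start of the first gene. VTRNA1-3 and RNY4 have no box beneath them, and RNY5 and RNY1 each have a second, grey box beside their own.

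RNY5 and RNY1 each had a further region close by, and RNY3 had none within 1 kb. A region of 658 bp (chr7:148940662-148941319) ended 168 bp before RNY5, leaving 86 bp between it and the RNY5 region. It contained the start site of ENSG00000286180, an unnamed lncRNA gene transcribed away from RNY5. A region of 489 bp (chr7:148987428-148987916) lay 179 bp upstream of RNY1, 91 bp from the RNY1 region, and contained the start site of GHET1, a lncRNA gene that likewise runs in the opposite direction to its neighbour. In both cases the second region was on the upstream side of the Y RNA gene. Of the 562 regions, 34 (6.05%) had a neighbour within 100 bp, and the smallest gap in the list was 74 bp. The RNY5 region also overlapped ENSG00000286171, a short lncRNA gene on the same strand that contains RNY5. The regions at RNY3 and RNY1 overlapped no other annotated gene.

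**Figure D2:**
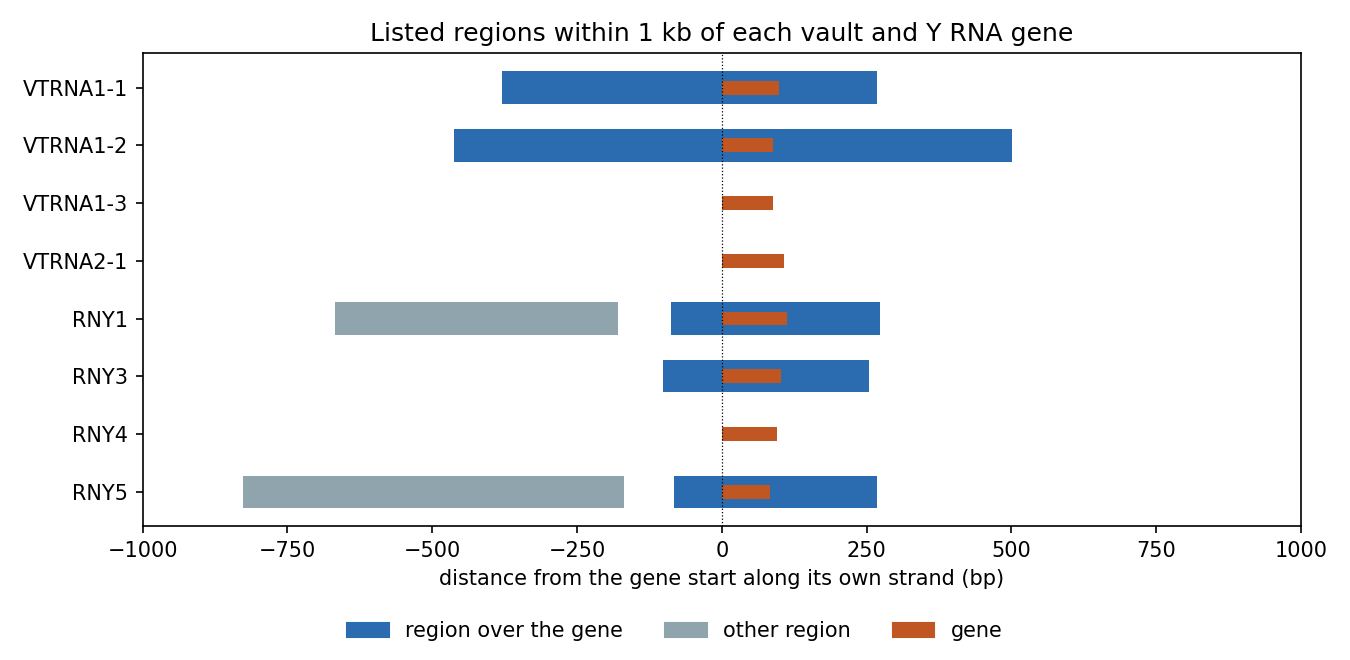
Regions within 1 kb of the 8 genes, aligned at the gene start (0) along the gene's own strand, in bp. The regions at RNY1, RNY3 and RNY5 begin 82 to 102 bp before the start and end 254 to 273 bp after it, while those at VTRNA1-1 and VTRNA1-2 extend 380 and 463 bp upstream, and grey boxes show the second region upstream of RNY1 and of RNY5.

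The overlap left no intermediate case. The 5 genes were contained in full, and the 3 others were 6731, 20242 and 2382820 bp from any region. As background, 695 of 62663 annotated genes (1.11%, 95% Wilson interval 1.03 to 1.19) shared a base with a region. Among the 12192 genes of at most 400 bp, the size class of the vault and Y RNA genes, 49 did (0.402%, 0.304 to 0.531). The list of 5 in 8 is printed beside these shares for scale only, since the genes were chosen with their regions known. The 5 regions were 0.89% of the list.

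The widths differed between the families. Over all 562 regions the median width was 1014 bp, with a range from 199 to 5176 bp. The regions at RNY5, RNY3 and RNY1 had 32, 33 and 35 narrower regions beneath them, so that 36 regions (6.41%) were at most as wide as that at RNY1. The region at VTRNA1-1 was wider than 21.7% of the list and that at VTRNA1-2 wider than 46.3%. No region at these genes reached the median. Other classes of short gene are given for comparison, without a test because width comes from the same list. The 79 regions with exactly 1 tRNA gene had a median width of 973 bp, and 8 of them were at most as wide as the RNY1 region. Apart from the regions at vault and Y RNA genes, the 32 regions that wholly held an annotated gene of at most 400 bp had a median of 1540 bp and a minimum of 704 bp, though a wide region is more likely to hold a gene.

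**Figure D3:**
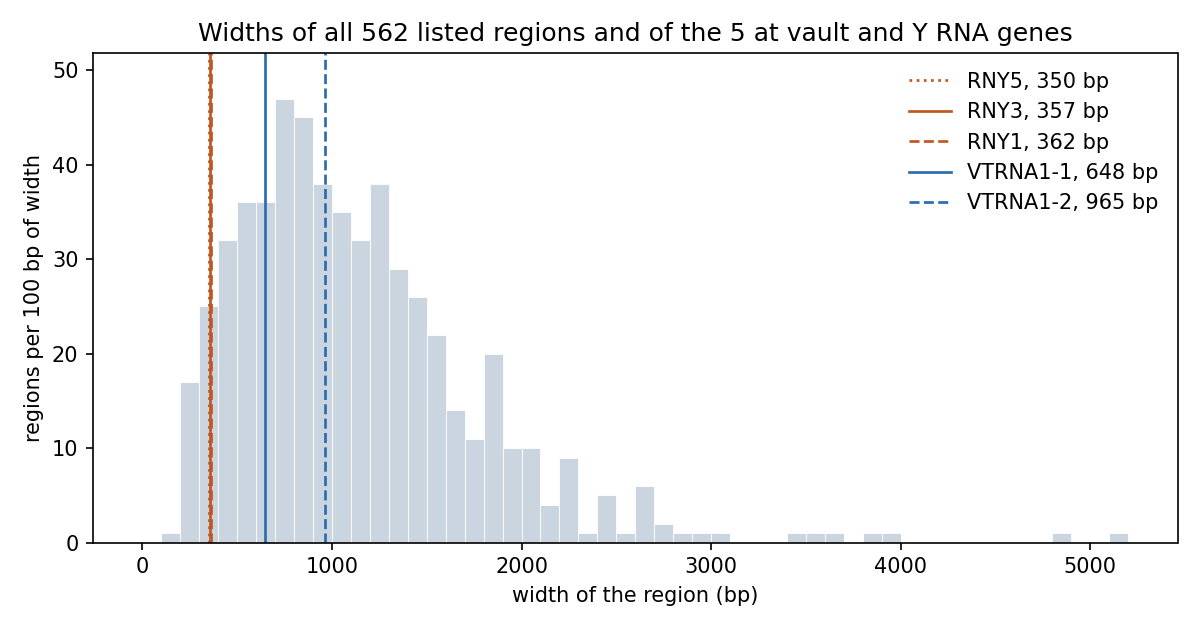
Number of listed regions per 100 bp of width, with the 5 regions at vault and Y RNA genes as vertical lines. The 3 Y RNA regions (350, 357 and 362 bp) fall together near the narrow end, and the vault regions (648 and 965 bp) lie nearer to the median of 1014 bp.

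The 100 bases before each start were compared because the upstream part carries the TATA box of these genes. For the VTRNA1 genes, capitals mark TATAA, searched 40 to 15 bases before the start on the gene's strand, and TGACTCA, the site of AP-1 factors, searched on both strands.
VTRNA1-1 (chr5:140711176-140711275, plus strand): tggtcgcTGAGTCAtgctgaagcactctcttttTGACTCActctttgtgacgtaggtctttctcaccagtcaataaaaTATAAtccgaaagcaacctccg
VTRNA1-2 (chr5:140718826-140718925, plus strand): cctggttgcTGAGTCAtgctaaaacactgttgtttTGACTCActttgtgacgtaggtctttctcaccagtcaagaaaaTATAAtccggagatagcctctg
VTRNA1-3 (chr5:140726059-140726158, plus strand): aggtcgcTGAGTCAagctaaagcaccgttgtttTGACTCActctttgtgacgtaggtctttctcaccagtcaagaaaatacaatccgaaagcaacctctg

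VTRNA1-1 and VTRNA1-2 had TATAA 22 bases before the start, and VTRNA1-3 did not. Of all annotated genes, 3.39% had it in this window, and 4.52% when both strands were searched. The 3 genes were alike in the AP-1 motif, with 2 copies each, starting 93 and 67 bases before the start in VTRNA1-1 and VTRNA1-3 and 91 and 65 bases before it in VTRNA1-2. VTRNA2-1 had neither motif in these windows. At least 1 AP-1 motif stood in the same window of 1.78% of annotated genes, and 2 or more in 0.0495%. Within the cluster, the gene without a region therefore differed from the other 2 in the TATAA letters and in the run of T at the annotated end. It shared with them the B box core and both AP-1 motifs. With 1 gene on one side and 2 on the other this is a description of the sequences, and its part in the overlap was not tested.

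Upstream of the Y RNA genes the same search gave a different picture, shown with TATAA in capitals.
RNY5 (chr7:148941388-148941487, plus strand): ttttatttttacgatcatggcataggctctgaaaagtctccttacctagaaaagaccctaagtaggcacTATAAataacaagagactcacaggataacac
RNY4 (chr7:148963215-148963314, plus strand): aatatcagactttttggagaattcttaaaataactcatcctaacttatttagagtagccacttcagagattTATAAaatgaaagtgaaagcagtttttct
RNY3 (chr7:148983655-148983754, plus strand): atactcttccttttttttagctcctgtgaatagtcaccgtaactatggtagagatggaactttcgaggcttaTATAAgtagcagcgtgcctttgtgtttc
RNY1 (chr7:148987249-148987348, minus strand): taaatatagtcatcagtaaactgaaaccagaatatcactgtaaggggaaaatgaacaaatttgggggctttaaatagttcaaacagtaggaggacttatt

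TATAA was present at RNY5 (31 bases before the start), RNY4 (29 bases) and RNY3 (28 bases), and absent in these letters from RNY1. Thus RNY4 had the motif and no region, and RNY1 had a region without it. The octamer ATTTGCAT, bound by POU2F1, occurred on either strand within 300 bases upstream of RNY3 alone of the 8 genes, against 2.41% of annotated genes.

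Within the VTRNA1 cluster, the genes with and without a region were also alike in sequence over their length. VTRNA1-3 was 82.7% identical to VTRNA1-1 and 87.6% identical to VTRNA1-2 in a global alignment, and VTRNA1-1 and VTRNA1-2 were 81.6% identical to each other. In the 100 bases upstream, VTRNA1-3 shared 90% with VTRNA1-1 and 85.3% with VTRNA1-2. VTRNA2-1 was further off, at 64.3% to 65.8% of the gene. Among Y RNA genes, RNY1 and RNY3 were the closest pair (72.6%), and RNY4 was 66.3% identical to RNY3, 63.7% to RNY1 and 61.0% to RNY5.

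Base composition was compared between genes with and without a region. From 250 bp before to 50 bp after the start, GC content was 50% at VTRNA1-1, 50.3% at VTRNA1-2 and 52.3% at VTRNA1-3, and reached 64.3% at VTRNA2-1. It was 36% at RNY1, 40% at RNY3 and 34.3% at RNY5, and 31.7% at RNY4, so that in this window all Y RNA genes were below all vault RNA genes. In the 1 kb around the start the families overlapped, with 51% at RNY3 against 44.2% at VTRNA1-3 and 45.4% at VTRNA1-1. In the 1 kb around the start RNY4 had 7 CpG dinucleotides, against 18 at RNY1, 34 at RNY3 and 40 at RNY5. This window also took in the start sites of the lncRNA genes ENSG00000286180 at RNY5, GHET1 at RNY1 and ENSG00000292256 at VTRNA1-1. VTRNA1-3 had 28, against 31 at VTRNA1-1 and 38 at VTRNA1-2. In either cluster the gene without a region had the fewest CpG in this 1 kb. VTRNA2-1, also without one, had the most of all 8 (47). The median over all annotated genes was 17. From 250 bp before to 50 bp after the start, VTRNA1-3 instead had the most CpG of its cluster (12, against 11 at VTRNA1-1 and 7 at VTRNA1-2). RNY4 still had the fewest of its cluster (2, against 5 at RNY1, 6 at RNY3 and 3 at RNY5). The order of the VTRNA1 genes thus depends on the window. GC skew, the excess of G over C relative to their sum, was taken over the 500 bp after the start because R-loops are known to form on G-rich transcripts. It was 0.111 at VTRNA1-2, 0.048 at RNY3 and 0.037 at VTRNA2-1, and negative at the other 5 genes, with RNY4 lowest at -0.102. All 8 values lay between the 5th and 95th percentiles of annotated genes (-0.176 and 0.234).

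**Figure D4:**
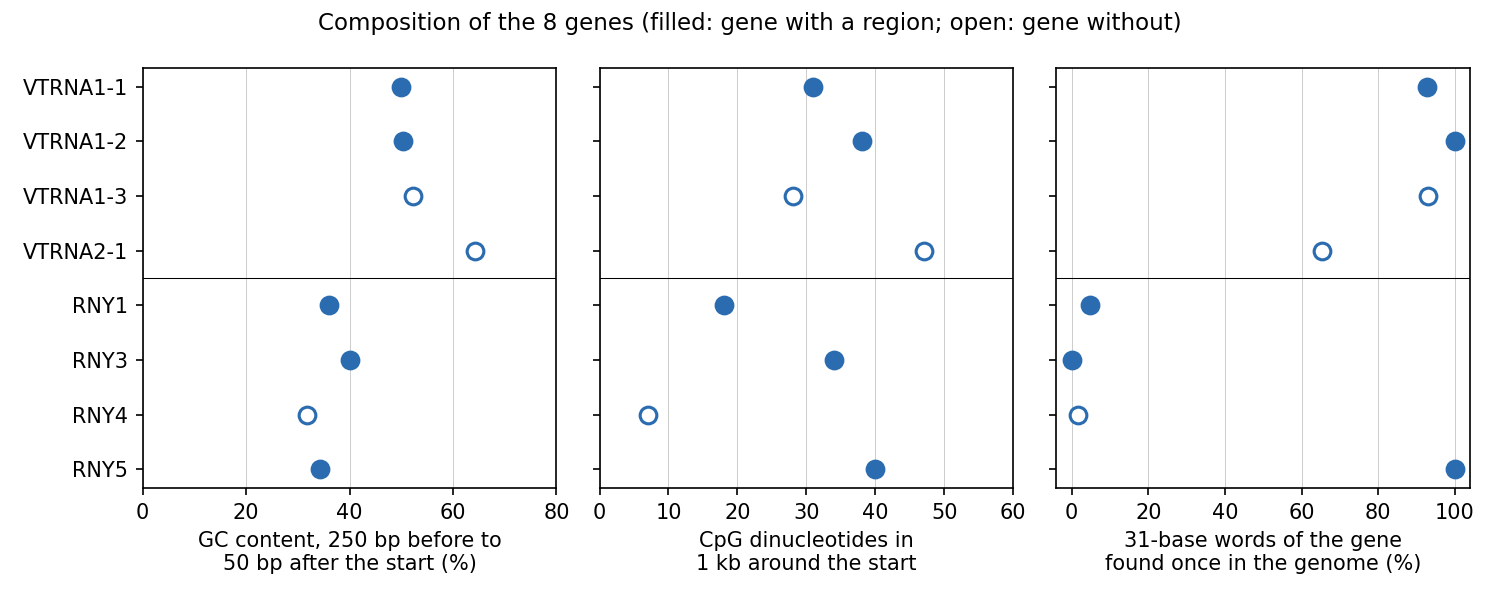
GC content around the start (%), CpG dinucleotides in 1 kb around the start, and share of the gene's 31-base words found once in the genome (%), for the 5 genes with a region (filled) and the 3 without (open). In this 1 kb the open points of RNY4 and VTRNA1-3 have the fewest CpG of their clusters, and VTRNA2-1 the most of all. In the shorter window used for GC content, VTRNA1-3 has the most CpG of its cluster.

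Y RNA genes have many retrotransposed copies, so the repeated sequence was counted. Of the 31-base words of the gene, 0 of the 72 of RNY3, 4.82% of those of RNY1 and 1.52% of those of RNY4 occurred once in the assembly without its alternate contigs. For RNY5 all of them did (100%). In the vault genes the share was 92.6% at VTRNA1-1, 100% at VTRNA1-2, 93.1% at VTRNA1-3 and 65.4% at VTRNA2-1. With 51-base words the share was 1.92% at RNY3, 77.8% at RNY1 and 39.1% at RNY4. The shares thus depend on the word length, and the order of these genes was the same. At both lengths RNY4, without a region, lay between RNY3 and RNY1, which had one. The sequence around the genes was mostly unique: with 500 bp on each side the share was 79.7% at RNY4, 83.4% at RNY1, 93.3% at RNY3 and 98.1% at RNY5. Within the regions themselves it was 78.0% at RNY3, 76.2% at RNY1, 100% at RNY5, 94.3% at VTRNA1-1 and 65.5% at VTRNA1-2. The study's paired reads were, before trimming, longer than each of these genes, so a full-length read over a gene reaches into its flank. The authors dropped reads of low mapping quality, which removes reads that match several places equally well. The part of this filter in the overlaps was not tested.

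The annotated copies of these families were looked up by symbol. Of 809 Y RNA copies and pseudogenes, 0 shared a base with a region, which allows a share of up to 0.371%, and 0 had one within 1 kb. That limit lies below the share among all genes of at most 400 bp (0.402%) but inside its interval (0.304 to 0.531). A difference between the copies and the short genes was not tested. Those short genes include VTRNA1-1, VTRNA1-2, RNY1 and RNY3, which have a region. Of 5 vault RNA copies 0 had one, which allows up to 60%. Many of the copies carry stretches of the genes: 282 shared a 21-base word with RNY3, 196 with RNY1 and 61 with RNY4, and 0 with RNY5. The most similar copy of RNY3 held 87.8% of its 21-base words.

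Genes whose proteins act with these RNAs were taken from 2 lists. Of 16 proteins that bind or modify vault and Y RNAs, among them MVP and TEP1 of the vault, RO60 and SSB (the La protein) and the RNA methyltransferase NSUN2, 0 had a region midpoint within 3 kb of a TSS, which allows up to 18.8%. Of 32 genes for RNA polymerase III and its factors, 2 did (6.25%, 95% Wilson interval 1.73 to 20.1). These were POLR3E, a subunit of the polymerase, with a region of 1760 bp (chr16:22297037-22298796), and GTF3C6, a subunit of TFIIIC, the factor that binds the B box, with a region of 1235 bp (chr6:110957996-110959230). Among 20033 protein-coding genes the share was 2.19%, which lies within the interval of the polymerase list and below the limit for the other. At this number of genes, a difference from the background was not detectable for either list.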

How the data were processed

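The data were 2 OMM2.3 CUT&Tag libraries with a V5 antibody, 1 shCtrl and 1 shA3B, grouped by sample title. Per the methods of the study and the submitters' processing notes, the authors trimmed reads with cutadapt 4.1, aligned them to GRCh38 with Bowtie2 2.2.5, removed duplicates with Picard 2.27.3, filtered on mapping quality with SAMtools 1.15.1, called peaks with SEACR 1.3 and compared the libraries with edgeR. Thresholds, normalization and dispersion are not given in the sources used here. The deposited file holds chromosome, start and end of each region, and no other value. Its starts were converted to 1-based positions. The line order is not documented and was not used.

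Member positions came from RefSeq (GRCh38.p14, 8 of 8 matched), whose chromosome coordinates are those of GRCh38. Other genes came from GENCODE release 44, which names 7 of the 8. Strands came from GENCODE, and for RNY5 from the strand that has the family's start and a final run of T. Overlap meant 1 shared base. Sequences were read from the hg38 assembly at these positions. The sequence of 1 gene is not reported here. Identity was identical columns over all columns of a global alignment (match 1, mismatch -1, gap opening -2, extension -1). Members, lists and motifs were chosen with earlier results of these data known. Named genes were the 8 members, genes in their regions, the nearest protein-coding genes, and list genes with a region. With a yes or no per gene, no likeness to other genes was computed. Overlap and word counts were tested on simulated data with planted answers. Wilson intervals (95%) and limits for a count of 0 (3 counts) describe shares of annotated genes, not reads. The tools were Biopython 1.88, pysam 0.24.0 and matplotlib 3.10.9, with pandas 2.3.3 and numpy 2.4.6 in Python 3.11.15.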

Additional observations from a re-analysis of the deposited data

How the results depend on the processing

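No paired analysis was possible because there was only 1 library per hairpin. The regions have no score, so a stricter call could not be tried. The 5 members with a region were the same genes when the whole gene had to lie inside the region, with a midpoint within 3 kb of the start, with a region within 500 bp or 1 kb, and with regions within 1 kb merged. GENCODE coordinates gave 4, since that annotation has no RNY5. In the wider 50% of regions the count was 0, for the VTRNA1 genes (0) and the Y RNA genes (0) alike, because all 5 regions are narrower than the median.

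The background of 1.11% became 0.402% for genes of at most 400 bp, 2.34% for protein-coding genes, 0.0989% with the whole gene inside a region and 0.677% in the wider 50% of regions. Merging raised the median width at members from 362 to 942 bp, because the RNY5 and RNY1 regions joined their neighbours (1094 and 942 bp), which also ends the near-equal width of the 3 Y RNA regions. The median distance from the region's middle was 36.5 bp for the middle of the gene and 76 bp for its start. Counts of copies (0) and of partner genes (0 and 2) did not change with their windows. Of 16 recomputed GC contents 10 moved beyond their interval. GC content in the gene body was 60.2% at VTRNA1-3 and 55.6% at VTRNA2-1, so their order depends on the window. All 16 recomputed shares of unique words moved, and with 51-base words they were 81.7% to 100% with 500 bp on each side.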
